A study of Mus musculus with 16 samples.

Results

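The transcripts of 9 chemokine receptor genes, grouped for the homing of T cells, were followed in tumor-infiltrating lymphocytes (TILs). The genes were Cxcr3, Cxcr4, Cxcr5, Cxcr6, Ccr2, Ccr4, Ccr6, Ccr9 and Cx3cr1. They were taken by gene symbol from a table of read counts, where they are 9 of 55450 genes, and all were found. CD4+ and CD8+ TILs had been isolated from subcutaneous tumors of B16F10, a mouse melanoma line of C57BL/6 origin, grown in wild-type (WT, C57BL/6J) mice and in mice lacking the deacetylase SIRT2 (Sirt2-/-, strain B6.129-Sirt2tm1.1Fwa/J). Mice were 7 to 8 weeks old, with no other allele or agent named for these samples, and the 4 groups, CD4+ WT, CD4+ Sirt2-/-, CD8+ WT and CD8+ Sirt2-/-, held 4 libraries each. The knockout is germline, so host cells other than T cells also lacked Sirt2, whereas the implanted tumor cells carried their own genes. The labels do not say whether CD4+ and CD8+ libraries with the same replicate number came from the same tumor. The series compared genotypes for signaling downstream of the T cell receptor, and the receptor transcripts were compared here between genotypes and between cell types. RNA was measured, not surface protein or migration.

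Chemokine receptors are membrane-spanning receptors coupled to inhibitory G proteins, and a T cell moves up a gradient of the ligands for which it carries receptors. CXCR3 binds the interferon-induced chemokines CXCL9 and CXCL10, and CXCR6 binds CXCL16, which can be membrane-bound on myeloid and stromal cells. CXCR4 binds CXCL12 and CXCR5 binds CXCL13, the chemokine of B cell follicles. CCR2 binds CCL2 and related monocyte-attracting chemokines, CCR4 binds CCL17 and CCL22, CCR6 binds CCL20, CCR9 binds the gut and thymus chemokine CCL25, and CX3CR1 binds CX3CL1 (fractalkine). CCR4 and CCR6 are known from regulatory and helper CD4+ T cell subsets, and CX3CR1 from cytotoxic effector CD8+ T cells.

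Of the 16 libraries, with 28000949 to 62407851 counts on genes, 3 had few genes detected. At least 1 count was found on 8169 to 14411 genes in CD4+ Sirt2-/- replicate 4, CD4+ WT replicate 1 and CD8+ WT replicate 1, against 17730 to 22138 genes in the other 13. Results are therefore given with all libraries and, where they rest on these 3, also without them. Sirt2 itself had 0 to 553 counts in Sirt2-/- and 1681 to 2272 counts in WT CD4+ TILs, and 322 to 448 against 1196 to 1703 counts in CD8+ TILs, without overlap in either cell type. Its log2 fold change was -2.60 in CD4+ (adjusted p = 0.9999 from edgeR, or 0.00163 without the libraries with few genes) and -2.22 in CD8+ TILs (adjusted p = 0.00663 from edgeR). Cd4 measured 383 to 639 CPM (counts scaled to the library's total counts on genes, in the usual CPM unit) in CD4+ WT and 0 to 1.97 CPM in CD8+ WT TILs, and Cd8a 0.0357 to 9.53 and 1006 to 1044 CPM. In Sirt2-/- mice Cd4 measured 344 to 622 and 1.64 to 4.94 CPM and Cd8a 10.3 to 34.6 and 949.9 to 1251 CPM. Cd8a and Cd8b1 together summed to 15.1 to 25.6 CPM in CD4+ WT and 22.4 to 67 CPM in CD4+ Sirt2-/- libraries, highest in replicates 3 and 4, against 1498 to 1710.2 and 1659 to 2029 CPM in CD8+ TILs. The part of these transcripts in the genotype comparison was not tested. The labels give 4 per group without tying a library to an animal, and p-values measure the spread between these libraries.

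Of the 9 genes, 6 lie on chromosome 9 (Cxcr5, Ccr4, Cx3cr1, Ccr9, Cxcr6 and Ccr2), and 1 each on chromosomes 1 (Cxcr4), 17 (Ccr6) and X (Cxcr3). Cx3cr1, Ccr9, Cxcr6 and Ccr2 lie within 4.21 Mb (GRCm38, chr9:119901616-124113557), and within this stretch Ccr2 was lower and Cxcr6 higher in CD8+ than in CD4+ TILs, as described below. In GRCm38 the minus strand carries Cxcr4 (ENSMUSG00000045382.6) at chr1:128588199-128592293, Cxcr5 (ENSMUSG00000047880.15) at chr9:44511787-44561877, Ccr4 (ENSMUSG00000047898.7) at chr9:114490316-114504916 and Cx3cr1 (ENSMUSG00000052336.7) at chr9:119901616-120069879. The plus strand carries Ccr2 (ENSMUSG00000049103.14) at chr9:124101950-124113557, Ccr6 (ENSMUSG00000040899.14) at chr17:8236043-8257141 and Ccr9 (ENSMUSG00000029530.16) at chr9:123678439-123784330, and Cxcr3 and Cxcr6 are placed with their values. RefSeq promoters (GRCm38.p6) were at hand for 8 of the 9 genes. The 250 bases upstream of the start site are shown 5′ to 3′ for Cxcr6 and Cx3cr1, the receptors higher in CD8+ TILs, and for Cxcr3 and Ccr4, which were lower. Capitals mark matches, on either strand, to 4 short motifs of T cell transcription factor families: TGTGGT for RUNX factors, AGATAA for the family of Gata3, TCACAC for T-box factors and GGAAGT for ETS factors.
Cxcr6 (chr9:123806227-123806476, plus strand): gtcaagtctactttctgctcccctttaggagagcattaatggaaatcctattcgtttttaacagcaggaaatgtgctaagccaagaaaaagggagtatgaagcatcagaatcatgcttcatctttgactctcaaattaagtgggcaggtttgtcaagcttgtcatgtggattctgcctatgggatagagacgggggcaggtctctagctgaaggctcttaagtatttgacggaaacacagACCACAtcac
Cx3cr1 (chr9:120068297-120068546, minus strand): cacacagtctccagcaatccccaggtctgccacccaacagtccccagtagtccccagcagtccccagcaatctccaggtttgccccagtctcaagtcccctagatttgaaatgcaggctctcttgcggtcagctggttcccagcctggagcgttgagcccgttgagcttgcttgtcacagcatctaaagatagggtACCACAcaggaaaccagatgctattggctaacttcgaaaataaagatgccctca
Cxcr3 (chrX:101734148-101734397, minus strand): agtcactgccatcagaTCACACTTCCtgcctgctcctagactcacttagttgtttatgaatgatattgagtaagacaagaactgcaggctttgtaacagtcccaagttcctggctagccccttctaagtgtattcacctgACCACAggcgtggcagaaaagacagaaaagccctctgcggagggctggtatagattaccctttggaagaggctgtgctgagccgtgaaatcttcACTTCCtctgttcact
Ccr4 (chr9:114496545-114496794, minus strand): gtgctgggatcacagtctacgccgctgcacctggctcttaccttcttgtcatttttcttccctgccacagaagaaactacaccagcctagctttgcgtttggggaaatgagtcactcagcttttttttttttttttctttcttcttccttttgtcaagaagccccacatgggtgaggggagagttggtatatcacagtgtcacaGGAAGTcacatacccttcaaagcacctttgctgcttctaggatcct
The RUNX letters occurred in the promoters of Cxcr6, Cx3cr1 and Cxcr3, each time as the reverse complement, so they were found beside receptors that were higher and beside one that was lower in CD8+ TILs. They were in 14.0% of all 32851 promoter windows of this length. The T-box letters, in 12.3% of windows, were found in Cxcr3 only among the members, overlapping an ETS match read on the other strand. The ETS letters, in 19.7% of windows, were also found in Ccr4 and in 1 of the 2 promoters listed for Ccr6. The letters for the Gata3 family, in 9.99% of windows, were found in Ccr2 and in the other Ccr6 promoter. Windows of Cxcr4 and Ccr9 held 0 of the 4 motifs. A match of 6 letters is a description of the window, not a binding site.

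In WT mice the receptor with the highest level differed between the cell types. Per kb of exon, which allows levels of different genes to be compared, Cxcr6 led in CD8+ TILs with 136 ± 23.6 CPM per kb (SD, n = 4) in WT and 148 ± 45.1 (SD, n = 4) in Sirt2-/- libraries. It made up 63.2 to 71.2% of the summed CPM per kb of the 9 receptors in CD8+ WT libraries, and 64.8 to 80.6% in CD8+ Sirt2-/- libraries. In CD4+ WT TILs Cxcr3 led with 86 ± 16.8 CPM per kb (SD, n = 4) and 36.2 to 47.4% of the sum, followed by Cxcr6 with 13.2 to 30.3%.

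The full order by mean CPM per kb of exon in CD8+ WT TILs was Cxcr6, Cxcr3, Cxcr4, Ccr2, Cx3cr1, Cxcr5, Ccr9, Ccr4 and Ccr6. The ranges of the 4 libraries did not overlap between neighbours down to Ccr2, whereas Ccr2 and Cx3cr1, Cx3cr1 and Cxcr5, and each neighboring pair among the last 3 overlapped. In CD8+ Sirt2-/- TILs Cxcr6 and Cxcr3 came first as well, each apart from its next neighbor, whereas Cxcr4 and Ccr2 overlapped. In CD4+ WT TILs the order was Cxcr3, Cxcr6, Cxcr4, Ccr2, Ccr4, Ccr6, Cxcr5, Cx3cr1 and Ccr9, with overlapping ranges between each neighboring pair from Cxcr3 to Ccr4. In CD4+ Sirt2-/- TILs Cxcr6 came first and Cxcr3 second (60.4 ± 13.7 and 53.7 ± 29.4 CPM per kb, SD, n = 4), and each neighboring pair of the order overlapped. Without replicate 4, which has few genes detected, Cxcr3 came first there too, with a mean of 65.9 against 63.1 CPM per kb. The rank of Ccr2 depends on the length used, because its annotated exons cover 6760 bases for a coding length of 1119. Per kb of coding sequence it ranked second of 9 in CD4+ WT and first in CD4+ Sirt2-/- TILs. Without CD4+ WT replicate 1 it ranked first in CD4+ WT TILs too, with a mean of 138 CPM per kb of coding sequence against 126 for Cxcr3.

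**Figure D1:**
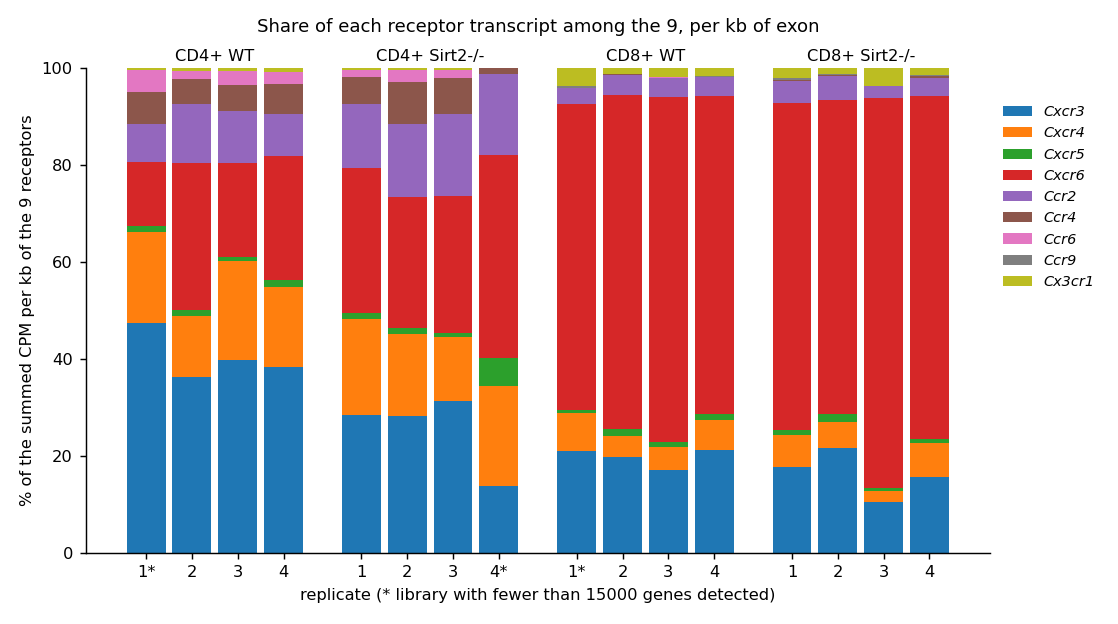
Each bar is 1 library, and its segments give the share of each receptor in the summed CPM per kb of exon of the 9 receptors, in percent. Cxcr6 takes 63.2 to 80.6% of every CD8+ bar and 13.2 to 41.8% of the CD4+ bars. Asterisks mark the 3 libraries with fewer than 15000 genes detected.

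Between CD8+ and CD4+ TILs of WT mice, 7 of the 9 receptors were called (edgeR quasi-likelihood test on counts, Benjamini–Hochberg adjusted p below 0.05 over 14892 genes). Cxcr3, Cxcr4, Ccr2, Ccr4 and Ccr6 were lower in CD8+ TILs, where 6.96% of all genes tested were called lower. Cxcr6 and Cx3cr1 were higher, where 4.89% of genes were called higher. The same 7 genes were called without the 2 WT libraries with few genes, when 13.1% of genes were called lower and 14.9% higher. In Sirt2-/- mice 4 of 9 were called, with Cxcr4, Ccr2 and Ccr4 lower (1.32% of 15787 genes tested) and Cxcr6 higher (0.918%). Without CD4+ Sirt2-/- replicate 4 this rose to 8 of 9, all but Cxcr5, with 5 lower and 3 higher, when 11.6% of genes were called lower and 13.8% higher. The 4 CD8+ libraries lay entirely above or below the 4 CD4+ libraries for 8 of 9 receptors in WT and 6 of 9 in Sirt2-/- mice, against 24.8% and 25.1% of genes with a mean of at least 1 CPM. RNA of bulk populations was compared, so fewer cells of a type and less RNA per cell cannot be told apart.

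**Figure D2:**
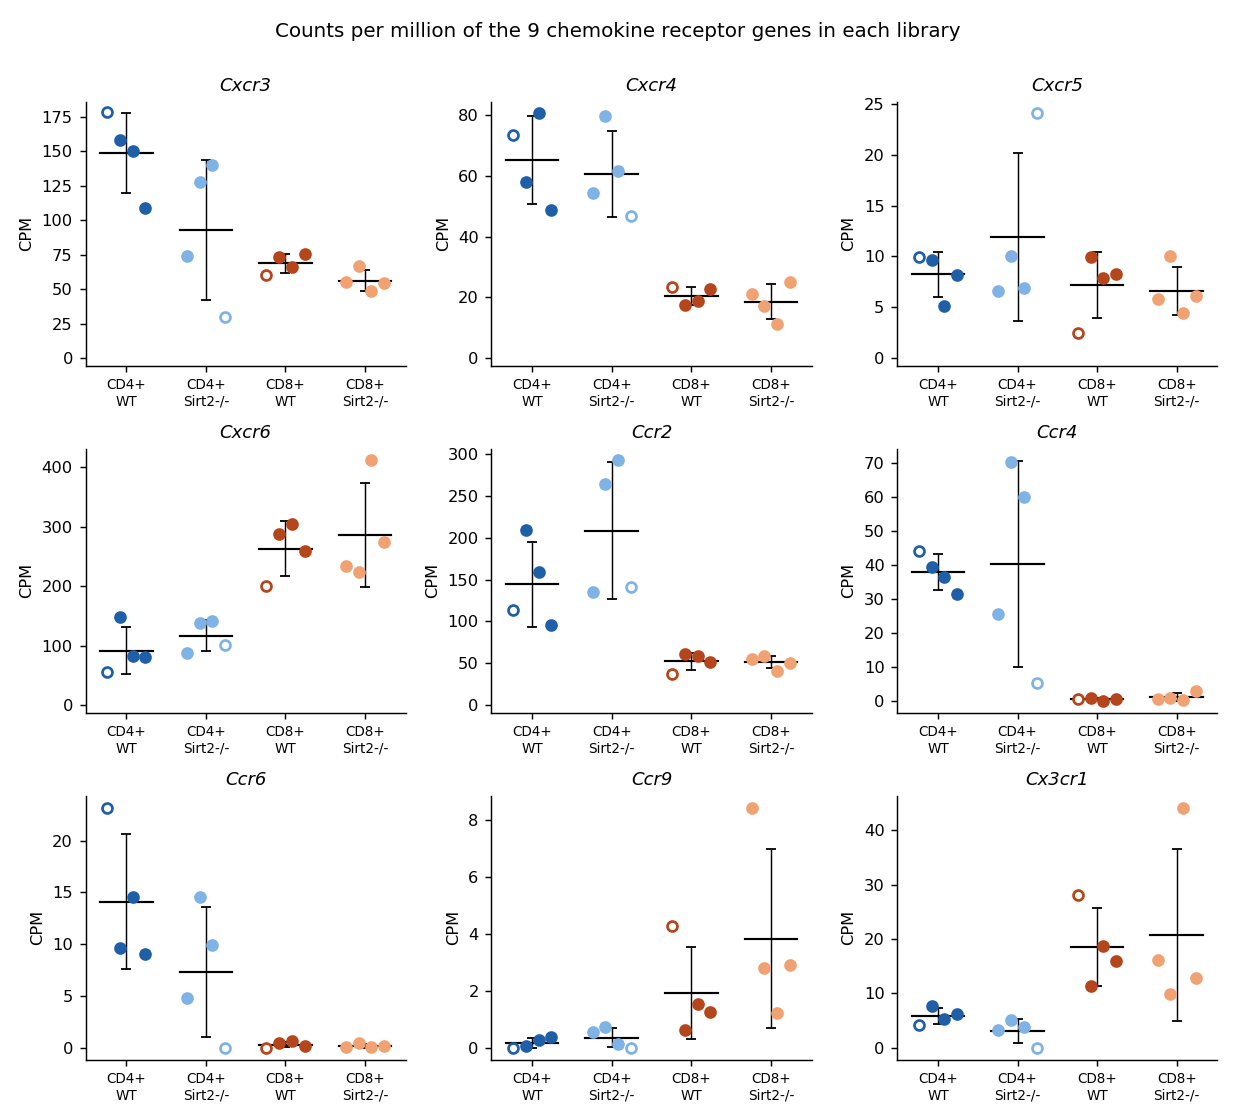
CPM of each receptor (vertical axes, linear, differing between panels) in the 4 libraries of each group. Points are libraries, hollow points those with fewer than 15000 genes detected, horizontal lines group means and bars the SD (n = 4). CD8+ points lie above the CD4+ points for Cxcr6, Ccr9 and Cx3cr1 and below them for Cxcr4, Ccr2 and Ccr4 in both genotypes.

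Among the CXC receptors, Cxcr6 was the one higher in CD8+ TILs. It measured 201, 287, 305 and 259.8 CPM in CD8+ WT replicates 1 to 4 and 55.3, 147, 81.8 and 80.9 CPM in the CD4+ WT replicates. Sirt2-/- TILs had 234, 223, 412 and 274 CPM in CD8+ and 87.3, 137, 141 and 101 CPM in CD4+ TILs. Every CD8+ library was above every CD4+ library, and CD8+ Sirt2-/- replicate 3 held the highest level of all 16. The ratio of the CD8+ to the CD4+ mean was 2.88 in WT (log2 fold change 1.45, standard error 0.27, adjusted p = 0.0059 from edgeR), and it was 2.45 in Sirt2-/- mice (1.30, standard error 0.24, adjusted p = 0.0325 from edgeR). Cxcr6 (ENSMUSG00000048521.8) spans chr9:123806475-123811760 of GRCm38 on the plus strand.

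Cxcr3, the receptor for interferon-induced chemokines, ran the other way. It measured 178, 158, 150.1 and 109 CPM in CD4+ WT replicates 1 to 4 and 60.0, 73.5, 65.7 and 75.4 CPM in the CD8+ WT replicates, without overlap. The means differed 2.17-fold (log2 fold change -1.16, standard error 0.14, adjusted p = 0.000441 from edgeR). In Sirt2-/- mice the values were 74.2, 128, 139.9 and 29.8 CPM in CD4+ and 55.1, 66.7, 48.3 and 54.7 CPM in CD8+ TILs. Here the groups overlapped because CD4+ replicate 4 lay below all CD8+ libraries, and the log2 fold change of -0.70 did not pass (standard error 0.39, adjusted p = 0.615 from edgeR). Without that library it was -0.995 (standard error 0.19, adjusted p = 0.0043 from edgeR). Cxcr3 (ENSMUSG00000050232.6) spans chrX:101731535-101734269 of GRCm38 on the minus strand.

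Cxcr4, the CXCL12 receptor of bone marrow retention, was lower in CD8+ TILs of both genotypes. CD4+ libraries measured 73.5, 58.1, 80.8 and 48.8 CPM in WT and 54.4, 79.7, 61.6 and 46.8 CPM in Sirt2-/- mice. CD8+ libraries measured 23.4, 17.3, 18.8 and 22.6 CPM in WT and 21.2, 17.3, 11.1 and 24.9 CPM in Sirt2-/- mice. All CD4+ libraries, those with few genes included, were above all CD8+ libraries. The log2 fold change of CD8+ over CD4+ TILs was -1.72 in WT (standard error 0.19, adjusted p = 0.000253 from edgeR), and it was -1.70 in Sirt2-/- mice (standard error 0.31, adjusted p = 0.034 from edgeR).

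Cxcr5, the receptor of follicular T cells, was low in every group, and its comparison did not pass in either genotype. It measured 9.96, 9.67, 5.08 and 8.2 CPM in CD4+ WT and 2.45, 9.9, 7.92 and 8.29 CPM in CD8+ WT TILs, with overlapping groups. Its Sirt2-/- values were 6.56, 10.03, 6.93 and 24.1 CPM in CD4+ and 5.86, 10.03, 4.44 and 6.06 CPM in CD8+ TILs. The highest value, from 1504 counts, was that of CD4+ Sirt2-/- replicate 4, the library with the fewest genes. The log2 fold change was -0.27 in WT (95% confidence interval -1.35 to 0.82) and -0.91 in Sirt2-/- mice (-2.68 to 0.85), or 0.15 and -0.23 without the libraries with few genes. The gene shares 3.30% of its exon bases with Bcl9l on the other strand.

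Of the CC receptors, Ccr2 was at 37.1 CPM or more in every library, whereas Ccr4 and Ccr6 reached at most 2.90 and 0.590 CPM in CD8+ TILs. Ccr2, the CCL2 receptor of monocytes and effector T cells, measured 114, 209, 159 and 95.2 CPM in CD4+ WT and 37.1, 60.9, 58.5 and 51.8 CPM in CD8+ WT TILs. Without Sirt2 the values were 135, 264, 293 and 141 CPM in CD4+ and 55.2, 58.3, 41.2 and 50.8 CPM in CD8+ TILs. The cell types did not overlap in either genotype. The CD4+ mean was 2.77-fold higher in WT (log2 fold change -1.53, standard error 0.24, adjusted p = 0.00206 from edgeR), and it was 4.06-fold higher in Sirt2-/- mice (-2.01, standard error 0.27, adjusted p = 0.0085 from edgeR).

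Ccr4, a receptor of regulatory and type 2 helper T cells, gave the largest difference in the WT comparison among the 9. It measured 44.1, 39.5, 36.7 and 31.5 CPM in CD4+ WT and 0.527, 0.9, 0.14 and 0.739 CPM in CD8+ WT TILs, the latter from 5 to 34 counts per library. The CD4+ mean was 65.8-fold higher (log2 fold change -6.08, standard error 0.49, adjusted p = 3.90e-05 from edgeR). The Sirt2-/- replicates measured 25.6, 70.5, 60.2 and 5.22 CPM in CD4+ and 0.668, 1.07, 0.502 and 2.9 CPM in CD8+ TILs. Replicate 4 of the CD4+ libraries was the lowest of all CD4+ libraries but still above all CD8+ libraries. The log2 fold change was -4.95 (standard error 1.002, adjusted p = 0.0449 from edgeR).

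Ccr6, the CCL20 receptor, measured 23.1, 9.6, 14.6 and 9.03 CPM in CD4+ WT and 0, 0.424, 0.59 and 0.164 CPM in CD8+ WT TILs. The latter came from 0 to 21 counts, and the 0 in replicate 1 allows up to 3 counts, or 0.0930 CPM, counting error only. Its log2 fold change was -5.59 in WT (standard error 0.92, adjusted p = 0.00258 from edgeR). In 1 edgeR model over all 16 libraries this call was lost (adjusted p = 0.0551). Levels in Sirt2-/- mice were 4.76, 14.6, 9.94 and 0 CPM in CD4+ and 0.0572, 0.457, 0.0201 and 0.181 CPM in CD8+ TILs. CD4+ replicate 4 had 0 of 62407851 counts, which allows up to 0.0481 CPM, and so overlapped with the CD8+ group. With it the log2 fold change of -5.34 did not pass (standard error 1.92, adjusted p = 0.272 from edgeR), and without it the value was -5.79 (standard error 0.79, adjusted p = 0.000825 from edgeR).

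Cx3cr1, the fractalkine receptor of cytotoxic effector cells, was higher in CD8+ WT TILs. It measured 28.2, 11.3, 18.8 and 15.9 CPM there and 4.25, 7.71, 5.22 and 6.16 CPM in CD4+ WT TILs, without overlap. The means differed 3.18-fold (log2 fold change 1.58, standard error 0.37, adjusted p = 0.0189 from edgeR). The call was lost without CD4+ WT replicate 3 (adjusted p = 0.0625), CD8+ WT replicate 3 (0.0612) or CD8+ WT replicate 4 (0.0531, all from edgeR). It was also lost in 1 edgeR model over all 16 libraries (adjusted p = 0.4995). In Sirt2-/- mice it measured 16.2, 9.82, 44.1 and 12.9 CPM in CD8+ and 3.22, 5.07, 3.86 and 0 CPM in CD4+ TILs. CD8+ replicate 3 was the highest there, as it was for Cxcr6, and CD4+ replicate 4 had no count. The groups did not overlap, yet the log2 fold change of 2.82 did not pass (standard error 1.45, adjusted p = 0.555 from edgeR). Without CD4+ replicate 4 it was 2.39 (standard error 0.55, adjusted p = 0.015 from edgeR).

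Ccr9, the CCL25 receptor of gut homing, was close to the limit of detection in CD4+ TILs. It had 0, 3, 11 and 16 counts in CD4+ WT and 138, 23, 55 and 46 counts in CD8+ WT TILs. The Sirt2-/- libraries had 25, 30, 6 and 0 counts in CD4+ and 442, 110, 61 and 145 counts in CD8+ TILs. All CD8+ libraries had more CPM than all CD4+ libraries of the same genotype, but the log2 fold changes of 3.23 in WT (standard error 1.39, adjusted p = 0.178 from edgeR) as well as 3.48 in Sirt2-/- mice (standard error 1.42, adjusted p = 0.368 from edgeR) did not pass. Without CD4+ Sirt2-/- replicate 4 the latter was 3.05 (standard error 0.79, adjusted p = 0.0164 from edgeR). Genes on the other strand, mainly AC165425.1, overlap 19.0% of the exon bases of Ccr9, and Gm17200 on the same strand overlaps 2.62%, and the strand setting of the counting is not given in the sources used here.

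The calls in Sirt2-/- mice rested on which libraries were kept. Leaving out any 1 of the 7 libraries other than CD4+ replicate 4 left Ccr2 as the 1 receptor called, with adjusted p from 0.00829 to 0.0426 over these fits, which called 111 to 234 of all genes against 354 with all libraries. In the same edgeR fits Cxcr6 had adjusted p from 0.0536 to 0.0978, Cxcr4 from 0.0764 to 0.144 and Ccr4 from 0.0763 to 0.171. Directions did not change, with log2 fold changes from 1.06 to 1.42 for Cxcr6, -1.86 to -1.51 for Cxcr4 and -5.72 to -4.55 for Ccr4.

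**Figure D3:**
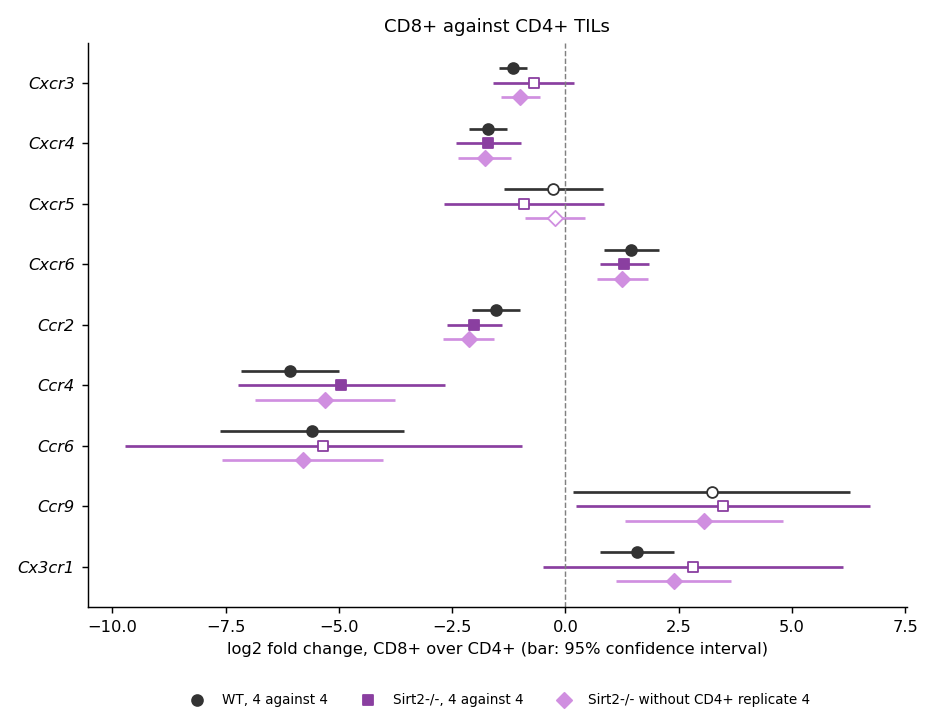
Log2 fold change of CD8+ over CD4+ TILs for each receptor with its 95% confidence interval, from edgeR, in WT mice, in Sirt2-/- mice and in Sirt2-/- mice without CD4+ replicate 4. Filled symbols passed the adjusted p threshold of 0.05, which 7, 4 and 8 of the 9 receptors did.

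Other cell types were checked beside these differences. The regulatory T cell list (Foxp3, Il2ra, Ikzf2 and Ctla4) summed to 1338 to 2715 CPM in CD4+ WT and 113 to 219.8 CPM in CD8+ WT TILs, and to 1161 to 2468 and 136 to 318 CPM in Sirt2-/- TILs, and its part in the receptor differences was not tested. The list of 11 macrophage and monocyte genes, cells that carry Ccr2 and Cx3cr1, summed to 1.61 to 39.8 CPM in CD4+ WT and 159 to 292 CPM in CD8+ WT TILs. In CD8+ TILs most of it was Ly6c2, which CD8+ T cells also express, and the other 10 genes, a choice made after their values were seen, summed to 1.61 to 16.8 and 2.29 to 9.64 CPM in WT and to 7.49 to 35.9 and 8.87 to 39.7 CPM in Sirt2-/- TILs. The macrophage genes Csf1r and Adgre1 were at most 5.26 and 3.99 CPM in any library. The fibroblast and endothelium list was carried by Pecam1, with 90.9 to 124 CPM in CD4+ WT and 37.1 to 45 CPM in CD8+ WT TILs. Pecam1 was at most 165 CPM in any library, and Col1a1, the next highest of the list, at most 26.2 CPM. Cdh5 and Kdr of the same list had no count in CD4+ WT replicates 1 and 2, the former a library with few genes. Replicate 3 had counts of both, and replicate 4 of Kdr. The dendritic cell list was carried by Zbtb46 (9.68 to 15 CPM in CD4+ WT and 3.1 to 8.12 CPM in CD8+ WT TILs), with Flt3 at most 0.645 CPM. B cell, NK cell and erythroid lists summed to at most 13.4, 14.0 and 9.9997 CPM in any library, and the melanoma list to at most 90.4 CPM, in a CD4+ WT library. The part of these lists was not tested.

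Loss of Sirt2 did not move a receptor past the threshold. In CD4+ TILs, 0 of 9 receptors were called between Sirt2-/- and WT libraries by edgeR, when 0% of 15070 genes tested were called. Sirt2 itself was not called in this fit, as given above. Over all genes an unadjusted p under 0.05 was reached by 190 with edgeR, 313 with DESeq2 and 1102 with limma-voom. DESeq2 called 7 of all genes and limma-voom 4. For the receptors DESeq2 and limma-voom also called 0 of 9, and an unadjusted p under 0.05 was reached by 0 of 9 with edgeR or DESeq2 and by 2 with limma-voom. Without the CD4+ libraries with few genes, edgeR called 0 of 9 receptors and 6 of 16034 genes. In CD8+ TILs 0 of the 8 receptors tested were called by edgeR, DESeq2 or limma-voom. Of all 15302 genes edgeR called 0.00654%, namely Sirt2, DESeq2 called 28 genes and limma-voom 5. An unadjusted p under 0.05 was reached by 0 receptors with edgeR or DESeq2 and 2 with limma-voom. Over all genes it was reached by 579 with edgeR, 752 with DESeq2 and 893 with limma-voom. Without CD8+ WT replicate 1, edgeR called 0 of 9 receptors and 7 of 15943 genes. Cxcr3 and Ccr9 then had an unadjusted p under 0.05, where 666 of all genes had one. Genotypes overlapped for all 9 receptors in both cell types, where 3.24% and 2.76% of genes with a mean of at least 1 CPM did not overlap. Ccr6 was not tested in CD8+ TILs for lack of counts, and its difference in CPM gave p = 0.571 in a two-sided exact permutation test of 4 against 4 libraries, where 70 assignments allow no p below 0.0286.

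With all CD4+ libraries the values nearest to the threshold were those of Ccr2 and Cxcr3, with opposite signs. Ccr2 averaged 209 ± 82 CPM over the 4 Sirt2-/- libraries and 144 ± 50.8 CPM over the 4 WT libraries (± SD), and its log2 fold change was 0.56 with a 95% confidence interval of -0.11 to 1.22. Cxcr3 averaged 93 ± 50.9 CPM over the Sirt2-/- and 149 ± 29.2 CPM over the WT libraries (± SD, n = 4 each), and its log2 fold change was -0.66 (-1.49 to 0.16). Without the 2 libraries with few genes, which leaves 3 against 3, these were 0.55 (-0.08 to 1.18) and -0.33 (-0.75 to 0.09), and the smallest p was then that of Cx3cr1, at -0.71 (-1.48 to 0.06). The share of Cxcr3 in the summed CPM per kb was 36.2 to 47.4% in CD4+ WT and 13.7 to 31.4% in CD4+ Sirt2-/- libraries. That of Ccr2 was 7.76 to 12.3% and 13.2 to 16.8%, given as a description. Shares of the other receptors overlapped between genotypes. A share depends on the levels of the other receptors and on exon length, and the CPM of Cxcr3 and Ccr2 overlapped between genotypes. The 13.7% was that of replicate 4. Without the libraries with few genes, Cxcr3 took 36.2 to 39.7% in WT and 28.3 to 31.4% in Sirt2-/- libraries.

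How small a change the CD4+ libraries could show differed by receptor. Cxcr4, at 60.6 ± 14.1 CPM in Sirt2-/- and 65.3 ± 14.5 CPM in WT TILs (SD, n = 4), had a log2 fold change of -0.07 and an interval of -0.59 to 0.45. Cxcr6, at 117 ± 26.5 and 91.3 ± 39.3 CPM (SD, n = 4), had 0.37 (-0.30 to 1.04). Intervals were wider for Ccr4 (0.09, -1.26 to 1.43) and Cxcr5 (0.60, -1.45 to 2.65). Sirt2-/- replicate 4 had the lowest Ccr4 and the highest Cxcr5 value of its group. The widest intervals were those of Ccr6 (-0.93, -4.17 to 2.31), Ccr9 (0.89, -2.92 to 4.70) and Cx3cr1 (-0.97, -4.22 to 2.28), which had no count in that replicate. Without the libraries with few genes the interval of Ccr6 was much narrower (-0.23, -1.003 to 0.54), as was that of Cx3cr1 given above, whereas that of Ccr9 stayed wide (0.91, -2.09 to 3.91).

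With all libraries the intervals were narrower in CD8+ than in CD4+ TILs for 6 of the 8 receptors tested, all but Cxcr4 and Ccr4. Without the libraries with few genes, Cx3cr1 and Ccr6 were wider in CD8+ TILs too. Cx3cr1 then had -0.86 to 1.79 in CD8+ against -1.48 to 0.06 in CD4+ TILs, and Ccr6 -3.36 to 1.09 against -1.003 to 0.54. Cxcr3 measured 56.2 ± 7.66 CPM in Sirt2-/- and 68.7 ± 7.14 CPM in WT TILs (± SD, n = 4), which gave a log2 fold change of -0.27 with an interval of -0.54 to 0.0081, the smallest unadjusted p among the 8. Without WT replicate 1, the library with few genes, it was -0.33 with an interval that lay below 0 (-0.58 to -0.077), and the adjusted p from edgeR was 0.9998. Ccr2 was at 51.4 ± 7.42 and 52.1 ± 10.7 CPM (± SD, n = 4), which gave a log2 fold change of 0.0068 (-0.36 to 0.37). Cxcr6, the leading receptor of these cells, was at 286 ± 87.1 and 263 ± 45.5 CPM (± SD, n = 4), which gave a log2 fold change of 0.15 (-0.28 to 0.58) that was -0.07 without Sirt2-/- replicate 3. Cx3cr1 (0.20, -0.77 to 1.16) likewise turned to -0.46 without that replicate. Cxcr4 and Cxcr5 had -0.11 (-0.64 to 0.42) and -0.10 (-0.998 to 0.80). The low-count genes Ccr4 and Ccr9 had 1.16 (-0.64 to 2.96) and 1.06 (-0.50 to 2.62). Without WT replicate 1, Ccr9 was 1.81 with an interval above 0 (0.40 to 3.23, adjusted p = 0.9998 from edgeR). With any 1 library left out, Ccr9 ranged from 0.29 to 1.81 and Ccr4 from 0.37 to 1.46. A value that does not pass leaves changes of the size inside its interval undetected.

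Whether the genotype effect differed between the cell types was tested as an interaction over all 16 libraries. By edgeR, 0 of 9 receptors passed, when 0% of 17270 genes did, and 0 of 9 had an unadjusted p under 0.05 (342 of all genes). DESeq2 called 0 of 9 receptors and 2 of all genes. With limma-voom 0 of 9 receptors and 0 of all genes were called, and 1 receptor and 771 of all genes had an unadjusted p under 0.05. The estimate with the smallest p was that of Ccr2, at -0.55 (-1.31 to 0.22), and that of Cxcr3 was 0.41 (-0.47 to 1.29). The same term is the difference between the genotypes in the CD8+ over CD4+ contrast, so the calls of Cxcr3, Ccr6 and Cx3cr1 in WT but not in Sirt2-/- mice were not shown to differ between genotypes. Its estimates for Ccr6 and Cx3cr1 were 0.22 (-3.92 to 4.37) and 1.18 (-1.71 to 4.08). Without the libraries with few genes they were -0.94 (-2.81 to 0.93) and 1.18 (-0.16 to 2.52). Those of Ccr2 and Cxcr3 were then -0.67 (-1.44 to 0.09) and -0.0016 (-0.51 to 0.50).

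**Figure D4:**
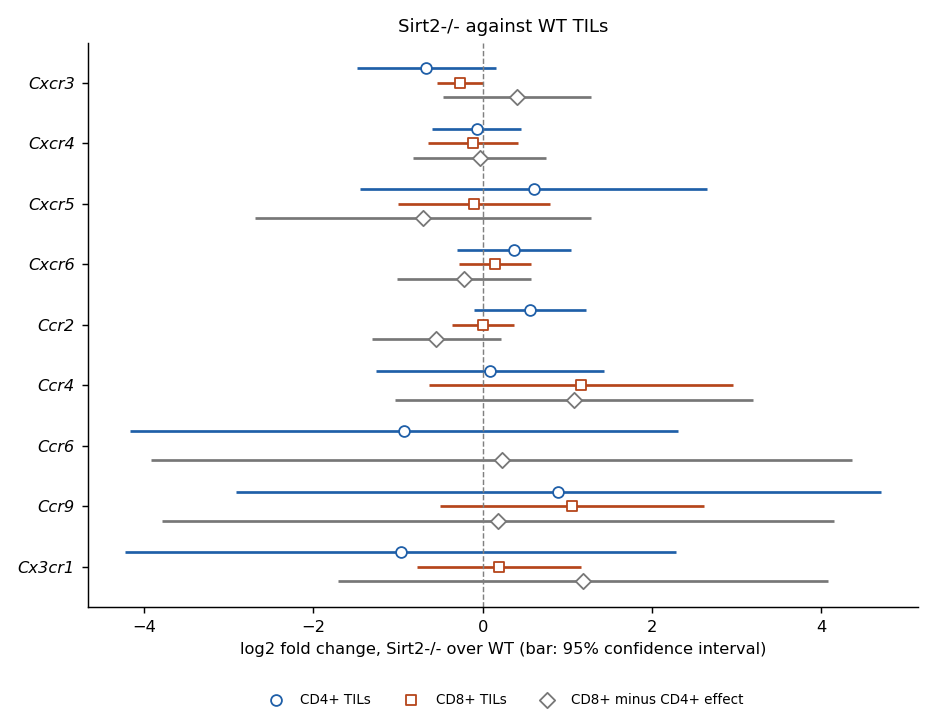
Log2 fold change of Sirt2-/- over WT TILs for each receptor with its 95% confidence interval, from edgeR, in CD4+ TILs (circles), in CD8+ TILs (squares, Ccr6 not tested) and the difference of the 2 effects (diamonds). Hollow symbols did not pass the adjusted p threshold of 0.05, and all symbols are hollow.

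Other parts of the chemokine system were read from lists of genes. Of 9 other chemokine receptors, 4 were tested between WT CD8+ and CD4+ TILs, where Ccr8, known from tumor regulatory T cells, was lower in CD8+ TILs (log2 fold change -3.32, standard error 0.65, adjusted p = 0.00686 from edgeR), and 1 was called higher. Of the 5 tested in Sirt2-/- mice, 0 were called. When the libraries with few genes were left out, 1 was called higher and 2 lower in WT, and 1 higher and 3 lower in Sirt2-/- mice. Over all genes calls then rose to 14.9% higher and 13.1% lower in WT, and to 13.8% and 11.6% in Sirt2-/- mice. The median log2 fold change of the list was -1.66 in WT and -0.69 in Sirt2-/- mice, against -0.02 and 0.16 over all genes tested. Of 5 atypical receptors, which bind chemokines without G protein signaling, 1 was tested in each and 0 were called. That gene was Ccrl2, at 0.07 (standard error 0.41) in WT and 0.96 (standard error 1.40) in Sirt2-/- mice.

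Few ligands of the receptors passed the filter on low counts. Of 15 ligand genes, 3 were tested in WT and 8 in Sirt2-/- TILs in the comparison of cell types, and 0 were called. Cxcl16, the ligand of CXCR6, measured 0.789 to 2.46 CPM in CD4+ WT and 0 to 0.59 CPM in CD8+ WT TILs. Between genotypes 0 of 4 tested ligands were called in CD4+ TILs. Without the libraries with few genes, 1 of 7 tested was called higher in CD4+ Sirt2-/- TILs, when 6 of 16034 genes were called. In CD8+ TILs 0 of 5 tested ligands were called, with a median log2 fold change of 2.47. There the log2 fold change was 6.01 for Cxcl9 (standard error 1.71, adjusted p = 0.986 from edgeR) and 2.47 for Cxcl16 (standard error 1.01, adjusted p = 0.986 from edgeR). The sums of the macrophage and monocyte list without Ly6c2, given above, were 8.87 to 39.7 CPM in CD8+ Sirt2-/- and 2.29 to 9.64 CPM in CD8+ WT libraries, and their part in these values was not tested.

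Downstream of the receptors, 29 of 30 signaling genes were tested in WT, and 6 were called lower and 1 higher in CD8+ TILs. The regulators of G protein signaling Rgs2 (-2.18, standard error 0.35), Rgs1 (-1.93, 0.22) and Rgs10 (-1.78, 0.16), which shorten the signal of the receptors, had the largest log2 fold changes. In Sirt2-/- mice 2 were called lower, Arrb1, the arrestin that uncouples receptors (-1.54, standard error 0.23, adjusted p = 0.0149 from edgeR), and Rgs1 (-1.50, standard error 0.21, adjusted p = 0.0109 from edgeR). The median over the list was -0.07 in WT and 0.15 in Sirt2-/- mice. Of 13 genes of lymph node egress and tissue homing, the integrin genes Itgae (-1.48, standard error 0.22) and Itgb7 (-1.16, 0.10), whose products pair as a receptor for epithelial E-cadherin, and the egress receptor gene S1pr1 (-0.75, 0.16) were lower in CD8+ WT TILs, 0 were higher, and in Sirt2-/- mice 0 were called. Without the libraries with few genes, 7 signaling genes were called higher and 7 lower in WT, and 6 and 6 in Sirt2-/- mice. For the homing list it was 2 higher and 5 lower in WT, and 2 higher and 3 lower in Sirt2-/- mice. Calls over all genes rose too, in WT from 4.89% to 14.9% higher and from 6.96% to 13.1% lower. In Sirt2-/- mice they rose from 0.918% to 13.8% higher and from 1.32% to 11.6% lower.

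Transcription factors of T cell subsets were the last list. In WT, 9 of 10 were tested, and 3 were called higher and 4 lower in CD8+ TILs. Foxp3, the factor of regulatory T cells (-7.97, standard error 0.47), Eomes, a T-box factor of cytotoxic and memory cells (3.48, 0.28) and Prdm1 (-1.44, 0.25) had the largest log2 fold changes. All 10 were tested in Sirt2-/- mice, and Eomes (3.58, 0.41) and Runx3 (0.68, 0.13) were called higher and Foxp3 (-6.83, 0.43) and Gata3 (-1.16, 0.23) lower. Without the libraries with few genes, 3 were called higher and 6 lower in each genotype. Shares over all genes, with and without these libraries, were those given for the signaling and homing lists. In the 6 lists 0 genes were called between genotypes in either cell type or for the interaction. In CD4+ TILs the genes of the lists with the smallest p included the kinase gene Ptk2b (-0.42, standard error 0.20), the integrin gene Itgb2 (-0.45, 0.17) and Foxp3 (-0.44, 0.30), each in its own list. In CD8+ TILs they included Rgs1 (0.56, 0.19) and the integrin gene Itgb1 (-0.40, 0.15). Without the libraries with few genes, 1 ligand was called higher in CD4+ Sirt2-/- TILs.

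The 3 receptors with the highest mean CPM, not scaled by exon length, were Cxcr6, Cxcr3 and Ccr2. Per kb of exon Cxcr4 came before Ccr2 in every group. Over the 13 libraries with at least 15000 genes, the genes running most like these 3 were looked up among 17269 genes. They were ranked by Spearman's rho in log2 CPM. For Cxcr6 these were Snx10, Pola1 and Pik3cg (rho 0.984, 0.978 and 0.978), the last a catalytic subunit of the phosphoinositide 3-kinase that G protein-coupled receptors activate. For Cxcr3 they were Heg1, Kynu and Tjap1 (0.956, 0.942 and 0.94), and for Ccr2 Arhgap31, Gm2a and Prkce (0.967, 0.951 and 0.945). The 13 libraries comprise both cell types, so a difference between CD4+ and CD8+ TILs enters each of these values. Among the receptors themselves, rho of Cxcr3 was 0.824 with Ccr2 and -0.736 with Cxcr6.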

How the data were processed

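Total RNA-seq of CD4+ and CD8+ TILs was analysed from the table of counts per gene that the authors deposited. Libraries were made with the SMARTer Stranded Total RNA-seq Pico v2 kit from 1 ng of RNA and sequenced as 100-base read pairs. The submitters' processing notes name STAR, HTSeq and mm10. Versions, the strand setting and the treatment of reads with several matches are not given in the sources used here. The deposited counts are whole numbers with no normalization, and 0 value columns were left unmapped.

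Gene models were those of GENCODE M21 (GRCm38), in which all 55450 gene IDs were found. Genes were filtered with filterByExpr, scaled with TMM and tested with the robust quasi-likelihood test of edgeR 4.0.16 in R 4.3.3, fitting each comparison on its 8 libraries and the interaction on 16. P-values were adjusted over all genes tested (Benjamini–Hochberg), with a threshold of 0.05. Standard errors were taken as the absolute log2 fold change over the square root of F, and intervals are 95%. The fits were run on simulated counts drawn from a common mean per gene for all libraries. Libraries with few genes were not simulated, so the fits were not tested for them. CPM were scaled by the total counts on genes, without TMM. Depth was 28000949 to 62407851 counts, and a count of 0 allows up to 3 counts. These limits cover counting error only. Alternatives were DESeq2 1.42.0, limma-voom 3.58.1 with quality weights, RLE and upper quartile scaling, no filter, 1 model over 16 libraries, a replicate block, leaving out the 3 libraries with fewer than 15000 genes and leaving out each library in turn.

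Members and lists were chosen with earlier results of these data known. The 4 motifs and the macrophage list without Ly6c2 were chosen after the values were seen. Named were all 9 members, up to 3 called genes per list with the largest change, or up to 2 with the smallest p where 0 were called, and for the 3 members with the highest mean CPM the 3 genes with the highest rho. No 2 libraries held the same counts. Some genes that this rule names are not reported here. No protein sequences were used.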

Additional observations from a re-analysis of the deposited data

Results flagged for a closer look

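Of 44 groups of 4 values tested for a sample far from the others, 3 stood out, and chance gives about 1 in 20. CD4+ WT replicate 1 had 28000949 counts on genes, far below the other 3 libraries of its group. CD4+ Sirt2-/- replicate 4 had 8169 genes detected and CD8+ WT replicate 1 had 14411, each far below the other 3 of its group. These are 2 of the 3 libraries with fewer than 15000 genes detected, and CD4+ WT replicate 1 is the third. Of the CPM values of the 9 receptors, 0 groups stood out in this way.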

How the results depend on the processing

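Of 343 values recomputed under alternatives other than leaving out 1 library, 311 kept their direction and side of the threshold, 13 reversed, 11 newly passed and 8 no longer passed. Of 424 values with 1 library left out, 365 kept both, 31 reversed, 4 newly passed and 24 no longer passed. The count of receptors called between CD8+ and CD4+ Sirt2-/- TILs, 4 with all libraries, was 8 with limma-voom, 8 without CD4+ replicate 4 and 1 to 8 with 1 library left out. It was 3 with no filter and 6 with DESeq2. Calls over all genes moved too, from 354 of 15787 to 4481 with limma-voom, 1339 with DESeq2, 4250 of 16703 without CD4+ replicate 4 and 267 of 27110 with no filter. In WT the count of receptors called was 7, and 6 to 7 with 1 library left out. It was 8 with DESeq2 and 5 with 1 model over 16 libraries. Over all genes, 1765 of 14892 were called in WT, and 1022 to 2767 with 1 library left out. DESeq2 called 2638 of 14892 genes and the model over 16 libraries 811 of 17270. The cause was not tested. The reversed values belong to comparisons that did not pass. For Cxcr5 between WT cell types the log2 fold change was 0.31 with limma-voom, and 0.15 when the low-gene libraries were left out. For Sirt2-/- against WT in CD4+ TILs, Cxcr4 was 0.042 with limma-voom, and Cxcr4 was 0.024 and Cxcr5 -0.031 when they were left out. In CD8+ TILs Ccr2 was -0.13 and -0.12, in the same order. The interaction of Cxcr3 was -0.082 and -0.0016 and that of Ccr6 -1.31 and -0.94. With 1 library left out, the values ranged as follows. Cxcr5 between WT cell types went from -0.45 to 0.072. In CD4+ TILs between genotypes, Cxcr4 went from -0.21 to 0.031, Cxcr5 from -0.081 to 0.81 and Ccr4 from -0.32 to 0.45. In CD8+ TILs, Cxcr4 went from -0.28 to 0.083, Cxcr5 from -0.39 to 0.10, Cxcr6 from -0.072 to 0.27, Ccr2 from -0.12 to 0.11 and Cx3cr1 from -0.46 to 0.46. The interaction went from -0.20 to 0.15 for Cxcr4, -0.75 to 0.79 for Ccr6 and -0.62 to 0.92 for Ccr9.

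Replicate numbers were not taken to pair the samples. Deviations of same-numbered CD4+ and CD8+ libraries correlated at 0.07 to 0.12 in WT and -0.01 to 0.13 in Sirt2-/- mice, and those of same-numbered WT and Sirt2-/- libraries at -0.07 to 0.08. With the replicate block, 0 of 9 receptors were called between Sirt2-/- CD8+ and CD4+ TILs, when 108 of 15787 genes were called. In WT the block called 6 receptors and 1619 of 14892 genes, and Cx3cr1 was lost (adjusted p = 0.0875 from edgeR). Between genotypes the block called 0 receptors, when 0 of 15070 genes in CD4+ and 4 of 15302 in CD8+ TILs were called. The log2 fold change of Ccr4 in CD4+ TILs was then -0.36 and that of Cx3cr1 in CD8+ TILs -0.0055.

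Depth limits Ccr6 and Ccr4 in CD8+ and Ccr9 in CD4+ TILs, where libraries held from 0 to 144 counts.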
